A study of Caenorhabditis elegans with 2 samples.

Results

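The peaks described here are strong LIN-32 peaks on chromosome X of Caenorhabditis elegans that lay away from tRNA genes and away from lin-32 itself. They were chosen by their deposited pooled signal and by position. The list called on both replicates together holds 26004 nuclear entries, background as well as peaks. The 2000 peaks with the highest signal were taken from it. Of these, 455 had their summit on X. Summits within 500 bp of a tRNA gene (91) and a further 12 within 20 kb of lin-32 were then left out. This left 352 X peaks, set beside 1418 autosomal peaks kept under the same exclusions from the same 2000.

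The study used ChIP-seq, the sequencing of DNA recovered with a tagged protein, to map the sites of 1 transcription factor in 2 biological replicates of 1 group, with no second condition. Both were embryos of mixed stages and pooled sex from strain OP740, collected by egg bleaching, with a labelled age of 3 h. The strain carries the integrated transgene wgIs740, in which LIN-32 bears TY1, EGFP and 3xFLAG tags at its C-terminus and which includes an unc-119(+) marker, in an unc-119(tm4063) background. Sonicated chromatin of whole organisms was recovered with an antibody to GFP, so a peak reports the tagged transgene product in any cell that makes it, and cell types cannot be told apart. The promoter that drives the transgene, its insertion site and its copy number are not given in the labels.

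LIN-32 is the worm Atonal, one of the basic helix-loop-helix (bHLH) proneural factors that start neuronal fate in ectodermal precursors, among them those of touch receptor and ray neurons. With its partner HLH-2 it binds E-boxes, hexamers of the form CANNTG, and the Atonal family favours CAGATG and CAGCTG. The worm X chromosome is poor in genes of germline function, and in hermaphrodites its transcription is lowered by the dosage compensation complex, which loads at X recruitment elements that carry the MEX motif.

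The sequences at the summits show what these peaks held. The windows below, 101 bp centred on the summit, are given 5′ to 3′ on the plus strand of WBcel235. Each is named for the protein-coding gene with the nearest 5′ end, which need not be a target. They are the strongest promoter, intron and outside peaks with an Atonal-type hexamer (CAGATG or CAGCTG on either strand) and without one, and capitals mark every CANNTG hexamer. The peaks with an Atonal-type hexamer come first in each class.
Promoter, chrX:9697805-9697905, dyf-7: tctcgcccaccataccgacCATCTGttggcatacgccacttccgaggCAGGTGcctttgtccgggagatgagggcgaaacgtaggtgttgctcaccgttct
Promoter, chrX:6207805-6207905, T13C5.6: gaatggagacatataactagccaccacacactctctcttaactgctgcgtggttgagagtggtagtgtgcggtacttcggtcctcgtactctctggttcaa
Intron, chrX:13146136-13146236, F09A5.3: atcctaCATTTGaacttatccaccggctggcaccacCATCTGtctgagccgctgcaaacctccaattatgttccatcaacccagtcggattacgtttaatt
Intron, chrX:3320207-3320307, ddr-2: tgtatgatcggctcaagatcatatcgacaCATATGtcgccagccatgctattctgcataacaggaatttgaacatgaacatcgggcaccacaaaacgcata
Outside, chrX:6259208-6259308, W05H9.4: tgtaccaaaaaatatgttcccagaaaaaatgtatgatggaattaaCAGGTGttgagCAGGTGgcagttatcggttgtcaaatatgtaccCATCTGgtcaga
Outside, chrX:16929703-16929803, C30E1.4: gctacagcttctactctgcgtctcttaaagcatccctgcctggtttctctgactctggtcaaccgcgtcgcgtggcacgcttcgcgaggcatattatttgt

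The windows beside dyf-7, F09A5.3 and W05H9.4 hold CATCTG, the reverse complement of CAGATG, together with other E-boxes. The ddr-2 window holds CATATG, and those beside T13C5.6 and C30E1.4 hold no CANNTG hexamer at all. A further 3 windows are the strongest X peaks with GCGCAGG, a heptamer that forms part of the MEX motif. There the capitals mark the heptamer alone, on either strand. The summit beside T26C11.2 lies in T26C11.3, an annotated pseudogene, and the tRNA exclusion covered only genes annotated as tRNA.
Outside, chrX:11094176-11094276, W02H3.3: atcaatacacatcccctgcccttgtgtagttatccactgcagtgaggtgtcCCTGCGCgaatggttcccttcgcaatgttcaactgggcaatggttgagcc
Promoter, chrX:14525892-14525992, nspc-17: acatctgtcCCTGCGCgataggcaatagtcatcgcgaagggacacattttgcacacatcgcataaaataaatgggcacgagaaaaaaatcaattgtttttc
Outside, chrX:1837805-1837905, T26C11.2: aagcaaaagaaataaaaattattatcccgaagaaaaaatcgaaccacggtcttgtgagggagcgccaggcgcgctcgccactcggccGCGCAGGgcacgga

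The kept peaks on X made up 19.9% of all 1770 kept peaks (352 peaks, 95% exact interval 18.1 to 21.8%). X holds 17.5% of the nuclear sequence left after the same exclusions and 13.7% of protein-coding genes. All intervals here cover counting error over peaks, which are not replicates. In the 2000 strongest peaks of each replicate's own list, X had 330 of 1783 kept peaks in replicate 1 (18.5%, 16.7 to 20.4%) and 331 of 1776 in replicate 2 (18.6%, 16.9 to 20.5%). Both replicate intervals include the length share, and the pooled interval lies above it. The IDR list holds the peaks that passed the authors' irreproducible discovery rate step, and the 857 kept there are all among the kept pooled peaks. On X they were exactly the kept peaks of pooled rank 1042 or better. Membership of the IDR list thus restates pooled rank for X peaks and adds no separate evidence. X had 171 of 857 kept peaks (19.95%, 17.3 to 22.8%), and this interval includes the length share. Among the 23774 weaker kept entries of the pooled list, which can be background, 4008 lay on X (16.9%).

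Per megabase (Mb), X had 20.2 kept peaks, against 17.2 on the autosomes together. X did not stand apart from every autosome. Chromosome III had 23.4 peaks per Mb, chromosome I 21.5 and chromosome II 19.3, while chromosomes IV and V had 13.7 and 11.6. X lay below chromosomes III and I in the pooled list and below all of chromosomes I, II and III in each replicate list, with 18.9 per Mb in replicate 1 and 19.0 in replicate 2. In the IDR list X had 9.81 per Mb, below chromosomes I, II and III. Protein-coding genes numbered 154 per Mb of X and 209 per Mb of the autosomes.

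**Figure D1:**
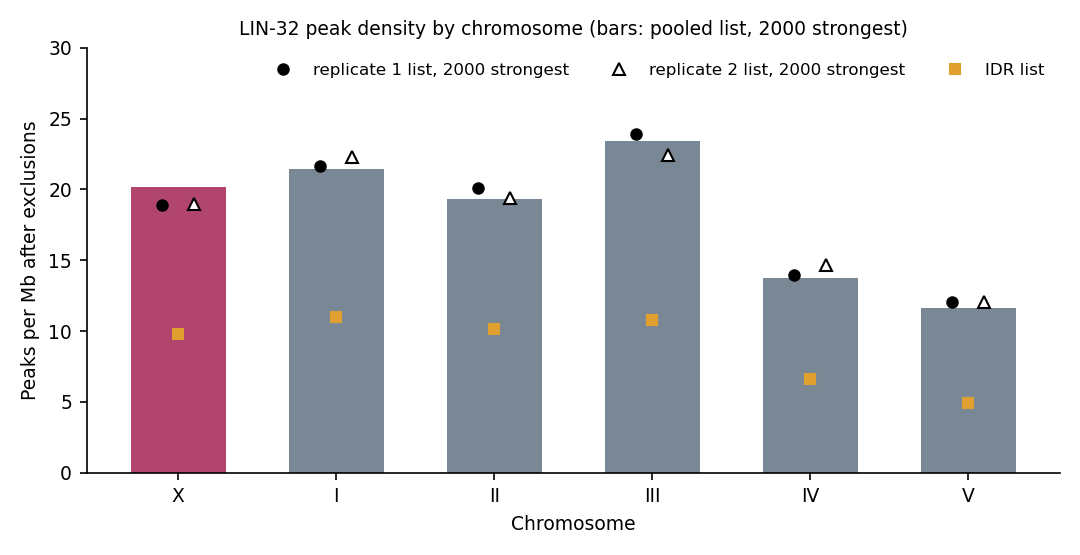
Kept peaks per Mb of sequence left after the exclusions, on X and on each autosome. Bars show the 2000 strongest pooled peaks, circles and triangles the 2000 strongest of each replicate list, and squares the IDR list. X has 20.2 pooled peaks per Mb, between chromosome I with 21.5 and chromosome II with 19.3.

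The X share varied with strength. Among pooled ranks 1 to 500 X had 66 of 392 kept peaks (16.8%), and among ranks 501 to 1000 it had 99 of 427 (23.2%). The next ranks to 1500 gave 97 of 469 (20.7%), and those to 2000 gave 90 of 482 (18.7%). The share was thus lowest among the strongest 500 and highest in the range after it, and these ranges were chosen after seeing the data.

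The authors' deposited signal has no stated scale. It ran from 70.5 to 573 with a median of 91.3 in the X peaks, and from 70.5 to 853 with a median of 90.3 in the autosomal peaks. Since signal chose the members, these values are a description. The last 5 X peaks inside the rank limit lay beside C46H3.2 (70.98), C53C11.1 (70.87), nhr-91 (70.76), pigx-1 (70.71) and M163.1 (70.45). The first 5 outside it lay beside fbxa-141 (70.35), ntc-1 (70.34), ldb-1 (70.08), chd-3 (70.03) and B0395.3 (70.02). Signals on both sides of the limit thus differed by less than 1 unit.

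The strongest X peak lay 4390 bp upstream of W05H9.4 (summit 6259258). Its signal was 307 in replicate 1, 267 in replicate 2 and 573 in the pooled list, where it ranked 11. It was the 11th strongest peak of replicate 1 and the 13th of replicate 2. The next, outside any promoter and 11675 bp upstream of F57G12.1 (summit 12183356), held CAGCTG at 2 places. Its signal was 240 in replicate 1, 291 in replicate 2 and 530 in the pooled list, and it ranked 23 in replicate 1 and 10 in replicate 2.

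The strongest promoter peak lay 804 bp upstream of dyf-7, whose zona pellucida domain protein anchors the dendrite tips of sensory neurons. It had a signal of 203 in replicate 1, 205 in replicate 2 and 416 in the pooled list. The replicate signals were close, and it ranked 34 in replicate 1 and 29 in replicate 2. A peak 306 bp upstream of cdk-4, the kinase that drives entry into the cell cycle with cyclin D, held CAGCTG and had a signal of 197 in replicate 1, 168 in replicate 2 and 362 in the pooled list. The peak 168 bp upstream of T13C5.6 held no E-box. It ranked 27 in replicate 1, with a signal of 224, but 93 in replicate 2, with a signal of 141, the widest gap among the 7 strongest X peaks.

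The strongest intron peak lay within F09A5.3, with a signal of 172 in replicate 1, 151 in replicate 2 and 331 in the pooled list. The peak beside C30E1.4, of the outside class and without an E-box, had 152 in replicate 1, 184 in replicate 2 and 330 in the pooled list. In both cases the peak was among the 100 strongest of each replicate list. Next in order came a peak 2718 bp upstream of igcm-4, which encodes a cell adhesion molecule of the immunoglobulin type, with 132 in replicate 1, 136 in replicate 2 and 273 in the pooled list.

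The other 12 of the 20 strongest X peaks had pooled signals of 210 to 265. Those in promoters lay beside T23C6.4, C14E2.11, spr-3, T04F8.9, ftt-2 and Y49A10A.2. The gene spr-3 encodes a zinc-finger protein found as a suppressor of presenilin mutants, and ftt-2 a 14-3-3 protein. Those in introns lay within ddr-2, a discoidin domain receptor that binds collagen and acts in axon guidance, and inso-1. Exon peaks lay within pgp-10, an ABC transporter gene, and pks-1, a polyketide synthase gene (nearest 5′ end C41A3.2). The last 2, beside calu-1 (calumenin) and W02H3.3, lay outside. All 20 were in the IDR list, which follows from their pooled ranks of 194 or better. Of the 20, 13 held an Atonal-type hexamer.

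The X peaks were spread along the whole chromosome. In 18 intervals of 1 Mb, counted from the left end with the last one shorter, the number of peaks ran from 13 to 30 with a median of 19. The fullest intervals were the third with 30 peaks, the fifth with 28 and the eighth with 27. The lowest counts were in the sixteenth and the shorter last one, with 13 each. Per Mb left after the exclusions, the sixteenth had 13.2 and the last 18.1. The fullest intervals depended on the list. In replicate 1 they were the fifth and the fourteenth with 29 each, while the third had 20, and in replicate 2 they were the eighth with 30 and the third with 26, while the fourteenth had 15. Dividing X into left, middle and right parts of equal length gave 128, 114 and 110 peaks, while the same parts held 871, 976 and 884 protein-coding genes. Across the 18 intervals, the Spearman correlation between peaks per Mb and protein-coding genes per Mb was 0.152 (Pearson 0.0739). Between the 2 replicate lists, which share the control, the Spearman correlation of the counts was 0.636.

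**Figure D2:**
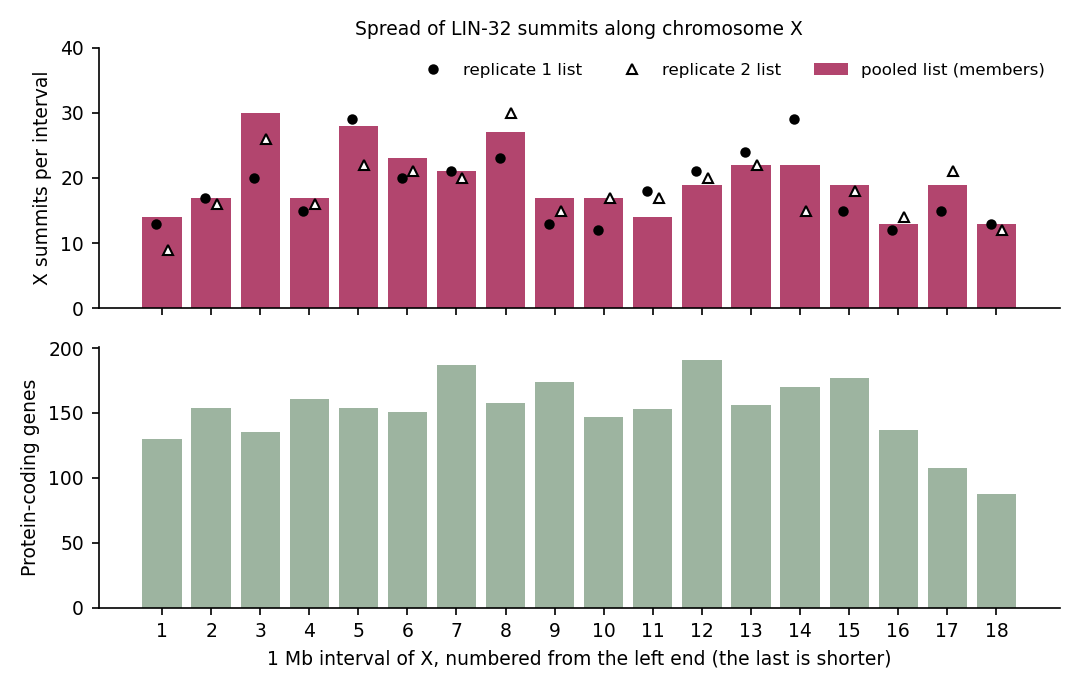
LIN-32 summits on X (top) and protein-coding genes (bottom) in 1 Mb intervals numbered from the left end of the chromosome. Bars at the top show the pooled list, circles and triangles the 2000 strongest peaks of each replicate list. Pooled counts run from 13 to 30, and no interval is empty.

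Neighbouring summits on X were a median of 27807 bp apart, against 31145 bp on the autosomes. The longest stretch of X without one ran over 419514 bp near the left end, from 9120 to 428634, and holds 44 protein-coding genes. Of the X peaks, 173 had another kept peak within 10 kb (49.1%, 43.8 to 54.5%), against 683 autosomal peaks (48.2%, 45.5 to 50.8%). The difference of 0.981 percentage points had an interval of -4.82 to 6.79. When neighbours within 10 kb were joined, the 352 summits fell into 241 groups, of which 179 were single peaks, 37 were pairs and 25 held 3 or more. Since the peak interval was 384 bp wide in 342 of the 352, some neighbours overlap, and summits more than 384 bp apart gave 346 distinct sites.

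The most crowded group held 9 summits over 27671 bp (7209360 to 7237030), beside spp-22, a saposin-like gene, syd-9, a zinc-finger gene that acts at synapses, and F46H5.3. Their signals ran from 72.4 to 202. Of the 9, 8 were matched in both replicates, 4 were in the IDR list and 3 held an Atonal-type hexamer. In this group 1 strong peak stood among weaker ones, since the next strongest had a signal of 114.

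Groups of 5 summits lay beside spat-3 and pqn-65, act-4 and calu-1, hbl-1 and F13D11.3, and ugt-50. The 5 beside spat-3, a gene of a Polycomb-type RING protein, and pqn-65 had signals of 111 to 178, and all 5 were in the IDR list. Beside act-4, an actin gene, and calu-1 signals ran from 73.7 to 256. Those beside hbl-1, the worm Hunchback and a regulator of developmental timing, and F13D11.3 ran from 71.3 to 145, and 2 of the 5 were in the IDR list. Within F09A5.3 4 summits lay in 2810 bp with signals of 109 to 331. All 4 were in the IDR list and 3 held an Atonal-type hexamer. Other groups of 4 lay beside tbb-4, a beta-tubulin gene of ciliated neurons, mdl-1, a Mad-like bHLH gene, ain-1 of the microRNA silencing machinery, and coh-1, a cohesin subunit gene. Groups of 3 included those beside igcm-4, where all 3 held an Atonal-type hexamer, sax-3, the Robo receptor gene, and unc-84, a SUN-domain gene of nuclear positioning.

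Each summit was put in the first of 4 classes that held it: a promoter (from 1000 bp before a protein-coding 5′ end to 200 bp after it), an exon, an intron, or outside. On X, 148 peaks lay in promoters (42.0%, 36.8 to 47.4%), against 640 on the autosomes (45.1%, 42.5 to 47.8%). The difference of -3.09 percentage points had an interval of -8.76 to 2.73. Outside all 3 gene classes lay 106 X peaks (30.1%, 25.36 to 35.2%), against 376 autosomal ones (26.5%). That difference was 3.60 points (-1.53 to 9.06). Introns held 19.0% of X peaks and 20.03% of autosomal peaks, and exons 8.81% and 8.32%.

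These shares differ in what the sequence offers. Promoter windows cover 21.8% of the X sequence and 27.1% of the autosomal sequence, so the peak share was 1.93 times the sequence share on X and 1.67 times on the autosomes. Sequence outside the gene classes covers 32.1% of X and 23.6% of the autosomes, which gave ratios of 0.937 on X and 1.12 on the autosomes. Exons were the least occupied in both in the pooled list, with ratios of 0.438 on X and 0.379 on the autosomes. This order between X and autosomes was turned round in replicate 1, with ratios of 0.527 on X and 0.708 on the autosomes. No test of these ratios was made.

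**Figure D3:**
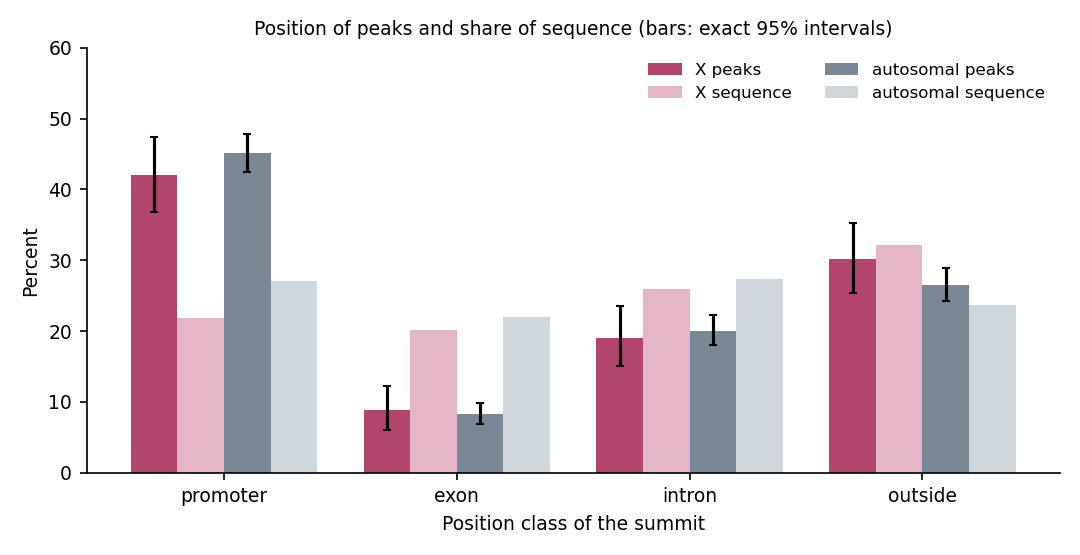
Share of peaks and share of sequence in each position class, with X left of the autosomes; error bars are exact 95% intervals over peaks. Promoters hold 42.0% of X peaks and 21.8% of X sequence, against 45.1% of autosomal peaks and 27.1% of autosomal sequence.

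In the lists of the single replicates the outside share differed more. It was 6.56 points higher on X than on the autosomes in replicate 1 (1.34 to 12.1) and 7.77 points higher in replicate 2 (2.39 to 13.4). The exon share went both ways. It was 10.6% on X and 15.6% on the autosomes in replicate 1, a difference of -4.95 points (-8.43 to -0.766), and 9.97% on X and 8.17% on the autosomes in replicate 2, a difference of 1.80 points (-1.37 to 5.73). In the IDR list the outside share was 4.32 points higher on X (-3.09 to 12.3), where promoters held 43.9% of X peaks and 47.5% of autosomal peaks. The median distance from summit to the nearest protein-coding 5′ end was 998.5 bp on X, against 882.5 bp on the autosomes. Within 2 kb of a 5′ end lay 69.3% of X peaks and 72.4% of autosomal peaks. On X 28 peaks lay more than 5 kb away, the farthest at 37813 bp near the left end.

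Of the X summits, 54 lay in an annotated non-coding RNA (ncRNA) gene, some of which overlap protein-coding genes (15.3%, 11.7 to 19.5%), against 104 autosomal summits (7.33%, 6.03 to 8.82%). The difference was 8.01 points (4.31 to 12.3). These genes also cover more of X, namely 1.93% of its sequence, against 0.866% of the autosomal sequence. The peak share was 7.93 times the sequence share on X and 8.47 times on the autosomes. Protein-coding genes held 37.2% of X summits and 43.1% of autosomal summits, and no gene of any kind 52.6% and 51.3%.

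X peaks carried Atonal-type hexamers more often than their surroundings. Within 50 bp of the summit 108 of the 352 held CAGATG or CAGCTG on either strand (30.7%, 25.9 to 35.8%). In windows of the same length centred 500 bp to each side the share was 5.82%, and 5.80% of all 101 bp windows of X hold one. CAGATG was found in 73 X peaks, CAGCTG in 41 and both in 6, with 19 peaks holding at least 2 hexamers. The hexamer nearest the summit lay at a median distance of 18 bp.

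On the autosomes 369 of 1418 peaks held one (26.0%, 23.8 to 28.4%), with 6.52% in flanks and 6.12% of all windows. The X share was 4.66 points higher (-0.494 to 10.1) in the pooled list. It was 6.83 points higher in replicate 1 (30.3% on X against 23.5%, interval 1.62 to 12.4) and 5.67 points higher in replicate 2 (28.1% on X against 22.4%, 0.593 to 11.2). The IDR list gave 41.5% on X and 35.6% on the autosomes, a difference of 5.95 points (-2.05 to 14.2). The X share was thus the higher one in all 4 lists, with intervals that excluded 0 in the 2 replicate lists. The lists are not independent, since the pooled list draws on both replicates and the kept IDR peaks are part of it.

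The difference between X and autosomes was widest among the strongest peaks. Among pooled ranks 1 to 500, 42 of 66 X peaks held an Atonal-type hexamer (63.6%, 50.9 to 75.1%), against 143 of 326 autosomal peaks (43.9%). The difference was 19.8 points (6.55 to 31.6). Among ranks 501 to 1000 the shares were 28.3% on X and 28.7% on the autosomes, and among ranks 1001 to 1500 they were 17.5% and 18.8%. Ranks 1501 to 2000 gave 23.3% on X and 15.8% on the autosomes, a difference of 7.52 points (-0.987 to 17.8). Among the 500 strongest of each replicate's own list the difference was 13.6 points in replicate 1 (57.1% of 77 X peaks against 43.5%) and 14.3 points in replicate 2 (57.4% of 68 X peaks against 43.0%). This cut was chosen after seeing the data.

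**Figure D4:**
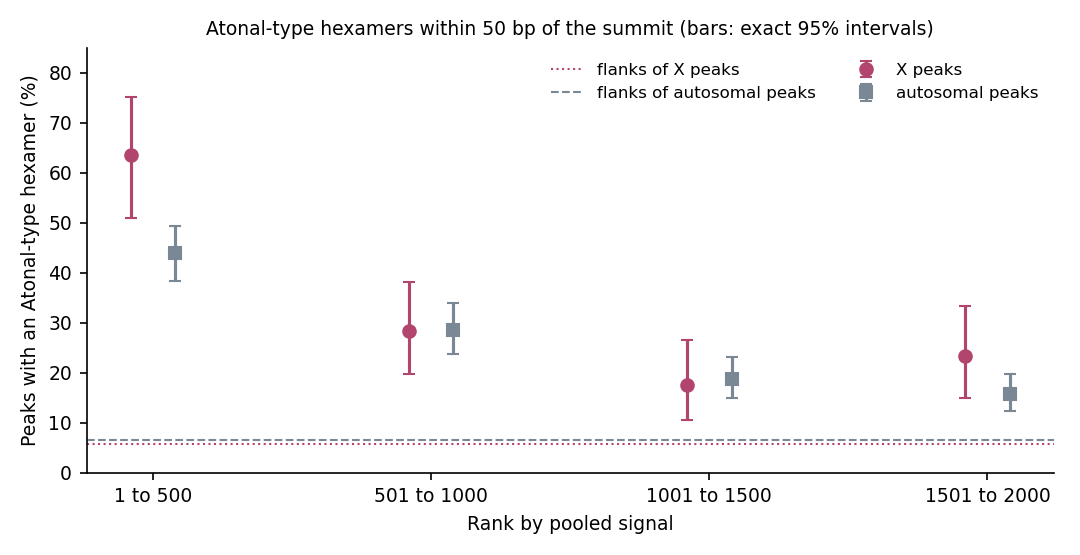
Share of peaks with CAGATG or CAGCTG within 50 bp of the summit, by rank in the pooled list, for X peaks (circles) and autosomal peaks (squares), with exact 95% intervals; lines give the share in flanks. Among ranks 1 to 500 it is 63.6% on X and 43.9% on the autosomes, and the intervals overlap in the 3 later ranges.

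By position, promoter peaks held an Atonal-type hexamer in 29.1% of cases on X and 21.6% on the autosomes, and intron peaks in 32.8% and 26.4%. Outside peaks had it in 32.1% of cases on X and 34.3% on the autosomes, the one class of the 4 in which the X share was lower. X peaks with the hexamer had a median signal of 118 (108 peaks) and those without 85.6 (244 peaks), and 65.7% of the first and 41.8% of the second were among the 2000 strongest of both replicates.

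Of the other 8 E-box classes, CACCTG was the most frequent at X summits, with 11.1% on X, 2.13% in flanks of X peaks and 9.45% on the autosomes. CACGTG, the site of Myc and Max type dimers, was found in 2 X peaks (0.568%), against 2.26% of autosomal peaks, a difference of -1.69 points (-2.69 to -0.0710). That difference was -2.26 points in replicate 1 (-3.45 to -0.358), -1.28 in replicate 2 (-2.48 to 0.697) and -1.75 in the IDR list (-3.25 to 1.05). CAATTG was found in 5.11% of X peaks and 5.97% of their flanks, against 2.75% of autosomal peaks, a difference of 2.36 points (0.262 to 5.28). It was 4.39 points in the IDR list (1.08 to 9.33), but 0.677 in replicate 1 (-1.16 to 3.40) and 1.44 in replicate 2 (-0.680 to 4.43). These intervals are not adjusted for the number of motifs. The dinucleotide repeat GAGAGA was found in 19.3% of X peaks and 22.4% of autosomal peaks, with 4.55% in the flanks of X peaks. In replicate 1 its order was turned round, with 19.4% on X and 18.7% on the autosomes, and the interval of the difference includes 0 in all 4 lists.

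GCGCAGG, the part of the MEX motif searched, was found within 50 bp of 11 X summits (3.13%, 1.57 to 5.52%), against 12 autosomal summits (0.846%). The difference was 2.28 points (0.771 to 4.69). All 101 bp windows hold it in 0.182% of cases on X and 0.187% on the autosomes, and 0.284% of the flanks of X peaks do. The count was 8 on X against 15 on the autosomes in replicate 1 (2.42% and 1.03%), and 6 against 10 in replicate 2 (1.81% and 0.692%). In the IDR list it was 6 on X against 7 on the autosomes (3.51% and 1.02%). The difference was 1.39 points in replicate 1 (0.0285 to 3.71), 1.12 in replicate 2 (-0.0161 to 3.23) and 2.49 in the IDR list (0.315 to 6.46). The X share was thus the higher one in each list, on counts of 6 to 11 peaks, but in replicate 2 the interval includes 0. Here too the lists are not independent.

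The 11 X peaks with GCGCAGG had signals of 73.3 to 217, and 6 of them lay outside, 3 in promoters and 2 in introns. All but 1 were matched in both replicates, and 1 also held an Atonal-type hexamer. The strongest were those printed above. The peak beside W02H3.3 had a signal of 121 in replicate 1, 95.7 in replicate 2 and 217 in the pooled list. That beside nspc-17 had 89.9 in replicate 1, 72.4 in replicate 2 and 158 in the pooled list. Replicate 1 was the higher of the 2 in both. Summit windows of X peaks had a GC content of 50.1 ± 7.31% (SD, n = 352 peaks), against 48.0 ± 7.75% for autosomal peaks, and flanks 34.3% and 36.2%. The part of GC content in the motif shares was not tested.

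The replicates matched at most X peaks, in part by construction, since the pooled signal draws on both. A summit lay within 100 bp in replicate 1 for 338 X peaks, in replicate 2 for 330 and in both for 317 (90.1%, 86.4 to 93.0%). The replicate lists hold background as well as peaks, with 30000 nuclear entries in replicate 1 and 22601 in replicate 2. A match can thus be a weak or background entry, and matched ranks reached 26033 in replicate 1 and 22094 in replicate 2. On the autosomes 1280 peaks were matched in both (90.3%), a difference of -0.211 points (-4.06 to 2.96). The 1 X peak matched in neither lay 5362 bp upstream of pqn-18, with a signal of 79.1. Among the 2000 strongest of both replicates were 173 X peaks (49.1%) and 667 autosomal peaks (47.0%), and the IDR list held 171 of the X peaks (48.6%) and 686 of the autosomal ones (48.4%).

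Matching was less frequent among weaker peaks. Of X peaks with pooled ranks 1 to 500 all 66 were matched in both replicates, of ranks 501 to 1000 98.0%, of ranks 1001 to 1500 86.6% and of ranks 1501 to 2000 77.8%. Some peaks were strong in 1 replicate and weak in the other. The peak 20 bp upstream of an act-4 5′ end, with pooled signal 93.6, ranked 555 in replicate 1 and 15083 in replicate 2. It was in the IDR list, which on X follows pooled rank, here 1015.

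**Figure D5:**
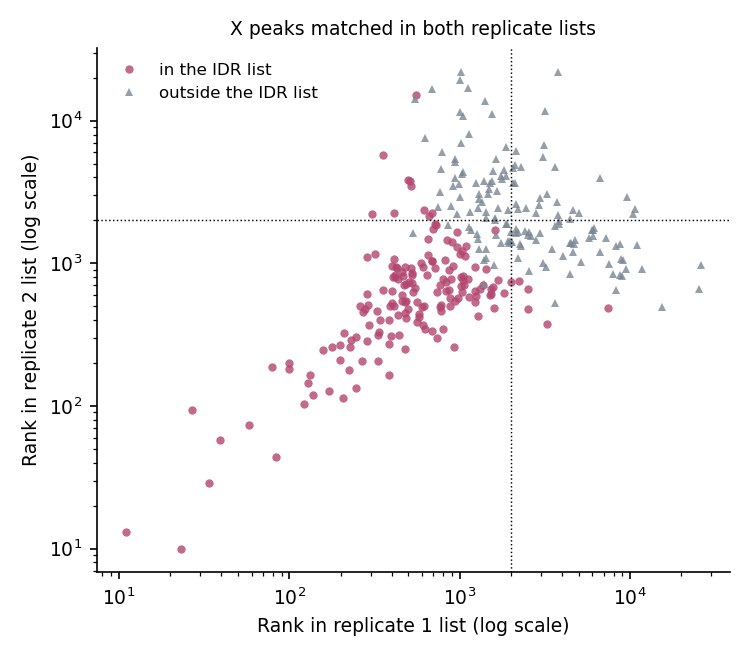
Rank in the replicate 2 list against rank in the replicate 1 list, both on log scales, for the 317 X peaks matched in both; circles are in the IDR list, triangles are not, and dotted lines mark rank 2000. IDR peaks lie mostly within the first 2000 ranks of both lists, and other peaks spread to ranks above 10000 in 1 of them.

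A peak was assigned to a gene if its summit fell between 2000 bp before and 500 bp after any of that gene's annotated 5′ ends. On X 210 of 2731 protein-coding genes had one (7.69%, 6.72 to 8.75%), against 1207 of 17242 autosomal genes (7.0%). The shares were 7.21% on X and 6.58% on the autosomes in replicate 1, 7.1% on X and 7.1% on the autosomes in replicate 2, and 3.88% on X and 3.64% on the autosomes in the IDR list. The pooled X genes were reached through 181 distinct summits.

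The gene lists are counts to be read against 7.69% for all X genes, and some genes are in 2 lists. Of 26 neuronal transcription factor genes on X, 2 had a peak, against 10 of 43 on the autosomes. They were ceh-14, a LIM homeobox gene of sensory and interneurons, with a signal of 47.8 in replicate 1, 55.6 in replicate 2 and 100 in the pooled list, and ceh-40, a TALE homeobox gene, with 47.9 in replicate 1, no matched summit in replicate 2 and 75.5 in the pooled list. None of 8 touch receptor neuron genes and none of 36 neuropeptide genes on X had a peak, against 2 of 9 and 2 of 107 on the autosomes. A count of 0 allows X shares of up to 37.5% and 8.33%.

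Of 20 axon guidance and adhesion genes on X, 5 had a peak, against 13 of 48 on the autosomes. They were unc-115 (126), an actin-binding protein of axon growth, rig-1 (107), an immunoglobulin superfamily gene, sax-1 (107), an NDR-type kinase of neurite shape, sax-3 (88.5), the Robo receptor, and dgn-1 (77.6), a dystroglycan. The summit counted for sax-1 lay 521 bp upstream of its 5′ end, but R11G1.2 had the nearer 5′ end, 57 bp from the summit. For sax-3 the signal was 64.5 in replicate 1 and 41.2 in replicate 2, and for unc-115 it was 56.0 in replicate 1 and 68.0 in replicate 2. The replicate lists counted 6 and 5 genes of this group on X and the IDR list 3. Synaptic and channel genes had 2 of 27 on X, namely syd-2 (132), the liprin-alpha of presynaptic assembly, with 63.3 in replicate 1 and 66.3 in replicate 2, and unc-2 (85.7), a calcium channel subunit.

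Wnt and Notch pathway genes had 4 of 9 on X, against 15 of 45 on the autosomes. They were vang-1 (141), the worm Van Gogh of planar polarity, sel-12 (96.6), a presenilin of Notch processing, adm-4 (81.6), an ADAM protease, and lin-2 (80.5). The last encodes a CASK-type scaffold known for placing the EGF receptor LET-23 with LIN-7 and LIN-10, and it is not a Wnt or Notch component. Without these 3 scaffold genes, left out after their values were seen, the count was 3 of 8 on X, against 15 of 43 on the autosomes. For vang-1 the signal was 68.1 in replicate 1 and 75.6 in replicate 2, while lin-2 ranked 1020 in replicate 1 and 6972 in replicate 2. Genes of sex determination and dosage compensation had 2 of 6 on X, against 2 of 15 on the autosomes. Both, fox-1 (108) and ceh-39 (107), are X signal elements, which count X chromosomes in the early embryo. For fox-1 the signal was 49.0 in replicate 1 and 58.9 in replicate 2, and for ceh-39 it was 60.2 in replicate 1 and 46.8 in replicate 2. Both had an Atonal-type hexamer and were in the IDR list.

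Among genes of other tissues, 1 of 16 body muscle genes (act-4, 95.7), 1 of 13 intestine genes (asp-4, 204, a cathepsin D type protease) and 1 of 3 cell cycle genes (cdk-4) on X had a peak. None of 27 cuticle collagen genes, 12 basement membrane, cuticle and epidermis genes or 2 ribosomal protein genes on X did in the pooled list. On the autosomes 4 of 129, 2 of 39 and 23 of 79 genes of these lists did. The counts of 0 allow X shares of up to 11.1% and 25% in the first 2 lists, and 2 ribosomal protein genes are too few for a limit. In the replicate lists the basement membrane, cuticle and epidermis list had 1 of its X genes with a peak in replicate 1 and 2 in replicate 2, and the collagen list had 1 in replicate 1 and 0 in replicate 2. Body muscle genes had 2 on X in each replicate list. Nuclear hormone receptor genes had 3 of 23 on X, against 5 of 246 on the autosomes, namely nhr-91 (91.8), nhr-40 (76.2) and nhr-35 (75.2). With pooled ranks of 1056 to 1671, none of the 3 was in the IDR list, and the replicate 2 list counted none. For nhr-91 the signal was 60.9 in replicate 1 and 26.7 in replicate 2. Homeobox genes with a ceh name had 3 of 18 on X, against 2 of 45 on the autosomes. They were ceh-39, ceh-14 and ceh-40, described above, and the replicate 2 list counted 1. Of the 44 germline genes listed, 0 are on X, and 2 of the autosomal ones had a peak.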

How the data were processed

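LIN-32 ChIP-seq peak lists from 2 biological replicates of mixed-stage embryos were used. Per the deposited notes, 1 list came from each replicate, 1 from both pooled and 1 from the IDR step, with 1 shared control alignment. The replicate and pooled lists hold peaks and background, as input for the IDR step. The authors' deposited signal and −log10 q-value per peak were taken as given, on an unstated signal scale, and the deposited peak offset, added to the start, gave the summit. The aligner, peak caller, IDR threshold and origin of the control are not named in the labels or notes. Read depth is unknown, so no detection limit in reads can be given. The build is ce11 per the labels, with the coordinates of WBcel235.

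Summits were placed on Ensembl release 115 annotation and the WBcel235 sequence. tRNA genes, lin-32 and protein-coding 5′ ends came from that annotation. Shares carry exact (Clopper-Pearson) 95% intervals and differences Newcombe 95% intervals. Counts of 0 were given the limit of 3 counts. No test or p-value was computed, because the peaks come from 1 group and pooled signal and position chose them. Motifs were sought on both strands, within 50 bp of summits, in flanks centred 500 bp away and in all windows of that length. Palindromic or overlapping matches count a peak once.

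The members, the 16 gene lists and the settings were chosen with earlier results of these data known. Genes named are the nearest to the 20 strongest X peaks, to peaks at the rank limit, to printed sequences and to groups of at least 3 summits, and up to 4 genes in each list; the fifth axon guidance gene, the genes beside unmatched peaks and the act-4 peak were added after their values were seen. Alternatives covered the number of peaks, each list, exclusion distances, windows and matching distances. Counting 1 summit per overlapping group, leaving lin-2, lin-7 and lin-10 out of 1 list and splitting by rank were chosen after seeing the data. Procedures were tested on simulated data. Python 3.11.15, numpy 2.4.6, scipy 1.17.1, pandas 2.3.3 and matplotlib 3.10.9 were used.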

Additional observations from a re-analysis of the deposited data

How the results depend on the processing

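Of 85 alternatives, 72 gave values within the interval of the reported one, or within 1.5 times it for a count of genes, 13 moved further, and none turned a difference whose interval excluded 0. With the 1000 strongest peaks the X share was 20.1%, 2.65 points above the length share (-0.0445 to 5.57). The IDR list gave 2.46 points above it (-0.168 to 5.29). With the 4000 strongest peaks the X share was 17.9%, 0.410 points above the length share (-0.809 to 1.68). In the replicate lists the X share was 18.5% to 18.6%, and 1.01 to 1.14 points above it, with intervals that include 0. The promoter share was 29.5% with a window of 500 bp upstream to 100 bp downstream, and 39.6% to 40.6% in the replicate lists. There the promoter difference ran from -5.75 to 0.482 points. The Atonal-type share was 42.4% among the 1000 strongest, 21.9% among the 4000 strongest and 41.5% in the IDR list, and 41.2% within 100 bp and 18.2% within 25 bp of the summit. In the replicate lists it was 28.1% to 30.3%. X genes with a peak numbered 102 with the 1000 strongest, 375 with the 4000 strongest and 106 in the IDR list, and 194 to 197 in the replicate lists. Matching in both replicates was 68.8% at 50 bp and 97.7% at 250 bp. Apart from the windows and the numbers of peaks themselves, the cause of these shifts was not tested. No paired analysis was possible because the 2 replicates form 1 group. With 66 X peaks among the 500 strongest and 11 with GCGCAGG, small differences were not detectable at this number of peaks.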
